A study of Homo sapiens with 15 samples.

Results

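HCT116 cells treated with the Apulia extract (AE) were set directly against HCT116 cells treated with pure hydroxytyrosol (HTyr), to find which genes the extract moved beyond, or short of, the pure phenol. The comparison used the 3 AE and the 3 HTyr libraries of the 15 in the series. It covered the 14899 of 60664 quantified genes that reached 1 TPM, a transcript abundance corrected for length and expressed relative to the whole library, in at least 3 of the 15 libraries. HCT116 is an established human colorectal carcinoma cell line, labelled wild type in every group. AE is an HTyr-enriched extract of oil production waste products (OPWPs) from Apulia, and HTyr is the synthesized compound. Both were given at 0.0154 mg/mL for 72 h. Untreated cells of the same line, also 3 libraries, supplied the level beside which both treatments were read. The doses match by total mass. AE holds other components beside HTyr, and the HTyr content of the AE dose was not stated, so equal mass is not equal HTyr.

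HTyr is a catechol found in olives and in the water and solids left by oil production. Phenols of this kind can be oxidized to quinones, which react with cysteines of KEAP1, the protein that keeps the transcription factor NFE2L2 (NRF2) low. NFE2L2 released from KEAP1 raises genes for glutathione synthesis, quinone reduction, NADPH supply, heme breakdown, iron storage and export pumps. Planar aromatic compounds can also activate the aryl hydrocarbon receptor, whose best known target is CYP1A1.

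Between 13653 and 14034 genes reached 1 TPM per library of the series. The mitochondrially encoded share of all TPM was 18.4 ± 0.682% with AE, 17.9 ± 0.961% with HTyr and 16.9 ± 1.56% in untreated cells (SD, n = 3 each). For AE against HTyr the exact permutation test, two-sided, gave p = 0.5, and it gave p = 0.8 both for ribosomal protein genes and for the 20 most abundant genes (the smallest p that 3 against 3 libraries allow is 0.1). Spearman correlations across genes lay between 0.977 and 0.982 among AE libraries, 0.972 and 0.982 among HTyr libraries, and 0.967 and 0.980 between AE and HTyr libraries. AE replicate 1 correlated more with HTyr replicate 3 (0.980) than with AE replicates 2 (0.978) and 3 (0.977). HTyr replicate 3 likewise stood closer to AE replicate 1 than to HTyr replicates 1 (0.972) and 2 (0.974). All 12 epithelial markers, KRT19 and EPCAM among them, were at 1 TPM or more in every library, with summed levels of 3091 to 3245 TPM with AE, 3370 to 3699 with HTyr and 4861 to 4948 in untreated cells. Of 18 immune cell markers, 7 were at 0 in each group, and the sums were 2.56 to 3.92, 7.32 to 8.98 and 18.5 to 19.5 TPM for AE, HTyr and untreated cells, most of it CD68.

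In the direct comparison 200 genes were called different, 1.34% of those tested, of which 134 (0.899%) were higher and 66 (0.443%) lower with AE than with HTyr. Calls came from limma on log2(TPM + 0.5) and needed both an adjusted p (Benjamini-Hochberg) under 0.05 and a difference of more than 1.5-fold. That scale understates the difference of genes at low TPM. Against untreated cells the same thresholds called 2466 genes with AE (16.6%) and 2421 with HTyr (16.2%), comparisons that share their untreated libraries. With no fold threshold 1359 genes passed, 1201 higher and 158 lower. At unadjusted p under 0.05 limma had 3904 of the 14899 tested genes, in either direction. All 134 higher and 64 of the 66 lower genes had no overlap between the 3 AE and the 3 HTyr libraries, as had 29.6% of all tested genes. The samples are called biological replicates in the labels. The methods speak of independent experiments for data given as means with SD, and do not say so of the sequencing in particular. The p-values rest on the spread between the labelled replicates. The fit took its spread from all 15 libraries. Fitted on the 6 AE and HTyr libraries alone, 25 genes were called, 14 higher and 11 lower, and 39 of the 56 called genes that were picked by rule lost the call, with unchanged differences and adjusted p (limma) between 0.0502 and 0.121. Those 39 were, among higher genes, HMOX1, GCLC, ABCC2, CHAC1, NUPR1, SEL1L, AXIN2, KIF15, NKTR, BCLAF1, KLF2, KLF11, PLCB1, ARRDC4, CASP6, ANKRD12, ZNF525, LCOR and KLRC4-KLRK1, and, among lower genes, CYP1A1, CD68, KRT7, KRT15, KRT19, FOSL1, S100A2, MMP7, H2BC5, RNVU1-28 and 10 genes of U2 type. NQO1, FTL, SLC7A11, OSGIN1, TRIM16L, HNRNPDL, HOXA10-AS, DKK1, CPA4, ALDH1A3, AKAP12 and HAS3 kept it.

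**Figure D1:**
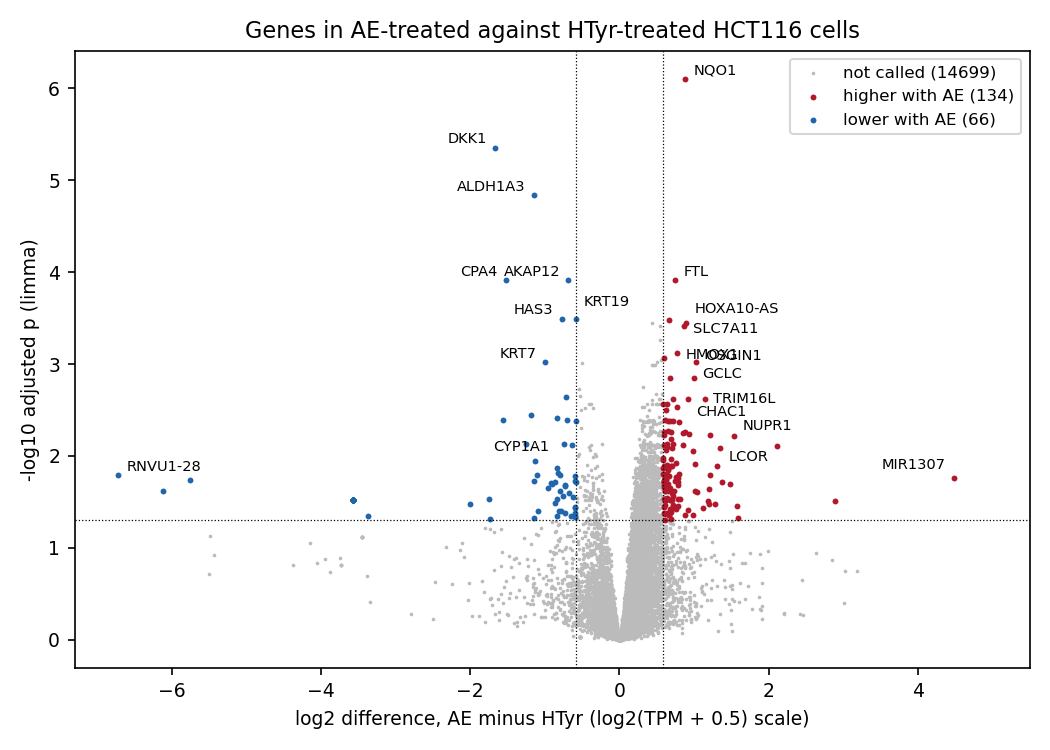
Log2 difference, AE minus HTyr, on the log2(TPM + 0.5) scale (horizontal) against -log10 of limma's adjusted p (vertical) for 14899 genes, with the 134 genes called higher with AE in red, the 66 called lower in blue and the thresholds dotted. NQO1 stands highest at a difference of 0.88, followed by DKK1 at -1.67 and ALDH1A3 at -1.15.

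The excess of higher genes depended on how libraries were scaled to each other. The median log2 difference of all tested genes was 0.12, 71.7% of genes were above 0, and scaling each library by its median ratio moved that median by 0.12, to 0.00. The calls then numbered 34 higher and 83 lower, in place of 134 and 66. They numbered 38 and 68 with quantile normalization, and 29 and 55 once each library's trend with GC content and transcript length was removed. Under the deposited TPM and each of these 3 other scalings, 24 genes were called higher and 38 lower. Transcripts of the 92 higher genes called under none of the 3 had a median length of 4812 bases and a median GC content of 41.7%, against 3423 bases and 48.3% over all tested genes. Differences given here are to be read beside the median of 0.12. Single libraries also set the count. It was 92 (61 higher, 31 lower) without AE replicate 1 and 74 (50 higher, 24 lower) without HTyr replicate 2. The lower calls alone numbered 34 without AE replicate 2, 41 without AE replicate 3 and 33 without HTyr replicate 1.

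**Figure D2:**
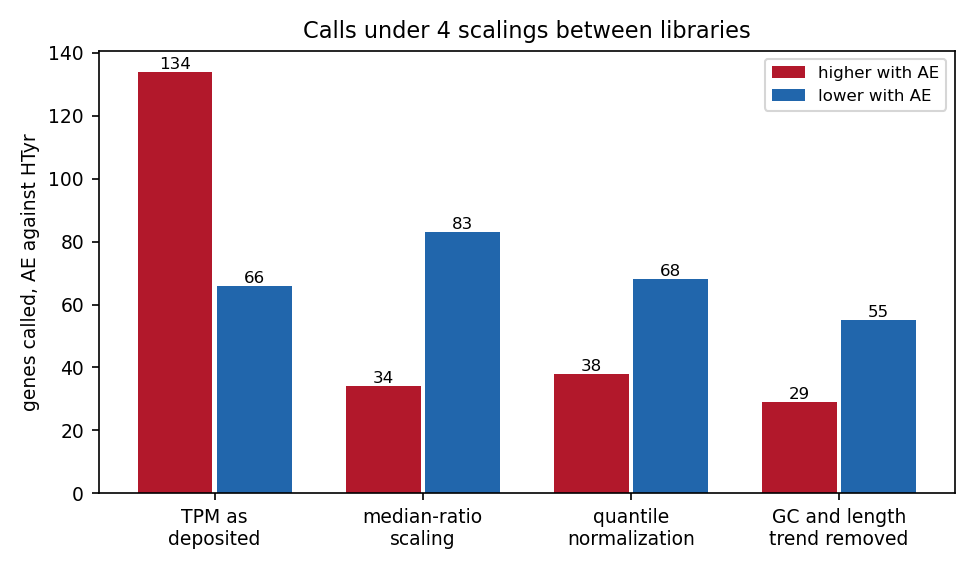
Number of genes called higher (red) and lower (blue) with AE than with HTyr when TPM were used as deposited and under 3 other scalings between libraries. The red bars stand at 134, 34, 38 and 29 genes and the blue bars at 66, 83, 68 and 55, so that more genes were called lower than higher under all scalings but the first.

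Antioxidant genes formed the largest group of higher calls among the lists examined. Of 40 tested NFE2L2 targets, 8 were called higher with AE than with HTyr and none lower, a share of the list to be set beside the 0.899% and 0.443% of all tested genes. Their median log2 difference was 0.42, and 34 of the 40 were above 0. The median was 0.30 under median-ratio scaling and 0.31 with the GC and length trend removed, with 8 and 7 members called higher. At unadjusted p under 0.05 limma had 29 members higher and 0 lower, beside 3904 of the 14899 tested genes in either direction. Against untreated cells the median was 0.52 with AE, with 17 members called higher and 0 lower, and 0.23 with HTyr, with 9 higher and 2 lower. Over all tested genes, 10.7% were called higher and 5.81% lower with AE, and 7.80% higher and 8.45% lower with HTyr.

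NQO1 reduces quinones, catechol quinones among them, and gave the smallest adjusted p of the comparison (ENSG00000181019, GRCh38 chromosome 16, 69706996 to 69726668). It stood at 1384, 1317 and 1400 TPM with AE, at 700, 766 and 757 TPM with HTyr, and at 327, 328 and 316 TPM in untreated cells. All AE libraries lay above all HTyr libraries, and these above all untreated ones. The log2 difference was 0.88 (standard error 0.0473, limma adjusted p = 7.88e-07). This call was lost in none of the alternatives run at the 1.5-fold threshold, though NQO1 does not reach a log2 difference over 1. HMOX1, heme oxygenase (ENSG00000100292, chromosome 22, 35380361 to 35394214), had the same order, with 44.8, 44.1 and 38.0 TPM with AE, 23.3, 22.9 and 27.5 with HTyr and 16.8, 15.3 and 14.2 in untreated cells. Its difference was 0.77 (standard error 0.0896, limma adjusted p = 0.000758).

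Genes of cystine import and glutathione synthesis were among those higher with AE. SLC7A11, the cystine carrier (ENSG00000151012, chromosome 4, 138164097 to 138242349), had 67.9, 73.5 and 70.0 TPM with AE, against 43.1, 34.3 and 38.1 TPM with HTyr and 36.4, 30.3 and 35.0 TPM in untreated cells. HTyr and untreated libraries overlapped, and the AE libraries lay apart (log2 difference from HTyr 0.87, standard error 0.0940, limma adjusted p = 0.00039). With the GC and length trend removed the difference was 0.58, short of the fold threshold. GCLC, the catalytic subunit of the enzyme that starts glutathione synthesis (ENSG00000001084, chromosome 6, 53497341 to 53616970), had 120, 95.1 and 93.7 TPM with AE, 56.7, 44.6 and 52.6 with HTyr and 82.9, 73.6 and 66.3 in untreated cells. Here the untreated level stood between the treatments, and neither was called against it (0.46 with AE and -0.53 with HTyr), while AE and HTyr differed by 1.0 (standard error 0.128, limma adjusted p = 0.00144). GCLM, the regulatory subunit, averaged 37.2 ± 0.954 TPM with AE, 28.7 ± 1.64 with HTyr and 13.7 ± 2.58 in untreated cells (SD, n = 3 each). It was called higher with both treatments against untreated cells, and not between them (0.37, limma adjusted p = 0.0762).

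Iron storage, export and other NFE2L2 targets followed. FTL, the ferritin light chain (ENSG00000087086, chromosome 19, 48965309 to 48966879), stood at 2711, 2805 and 2804 TPM with AE, at 1542, 1866 and 1571 with HTyr and at 2017, 1837 and 1837 in untreated cells, a difference of 0.75 between treatments (standard error 0.0685, limma adjusted p = 0.000122). The HTyr libraries overlapped the untreated ones. FTH1, the heavy chain, had a difference of 0.29, under the fold threshold. ABCC2, a pump that exports conjugated phenols and glutathione conjugates, had 61.4, 56.3 and 54.0 TPM with AE, 33.9, 28.9 and 37.4 with HTyr and 29.1, 21.4 and 25.9 in untreated cells (0.77, limma adjusted p = 0.00294). OSGIN1, an oxidative stress gene of growth inhibition, had 20.7, 19.4 and 21.9 TPM with AE, 9.54, 10.0 and 9.93 with HTyr and 28.1, 17.6 and 22.8 in untreated cells. AE libraries lay inside the untreated range, HTyr libraries below it, and the treatments differed by 1.03 (limma adjusted p = 0.00096). TRIM16L, a paralog of the E3 ligase gene TRIM16, had 39.4, 34.3 and 39.2 TPM with AE, 16, 18 and 16.3 with HTyr and 16.7, 14.9 and 10.6 in untreated cells (1.14, limma adjusted p = 0.0024). The annotation types TRIM16L as a transcribed unprocessed pseudogene. TRIM16 itself was called higher too, by 0.72. Reads of near-identical copies may be split between such paralogs, and the same holds for FTL and its pseudogene FTLP3, which was called higher by 1.02.

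Not every antioxidant gene separated the treatments. TXNRD1, thioredoxin reductase, had 379, 354 and 359 TPM with AE, 266, 253 and 292 with HTyr and 349, 317 and 317 in untreated cells. Its difference of 0.43 had a limma adjusted p of 0.00249 and missed the fold threshold, as did those of SQSTM1 (0.54), ME1 (0.53), NFE2L2 itself (0.49) and KEAP1 (0.41), all with an adjusted p under 0.05. TXN, thioredoxin, averaged 467 ± 42.9 TPM with AE and 474 ± 35.2 with HTyr, with 304 ± 24.9 in untreated cells (SD, n = 3 each), a difference of -0.02 between treatments. In a separate list of glutathione and thioredoxin enzymes the median difference was 0.00 over 32 tested members. Of these, 2 were called higher and none lower, beside 0.899% and 0.443% of all tested genes. The 2 were CHAC1 and ARRDC4, neither an antioxidant enzyme.

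**Figure D3:**
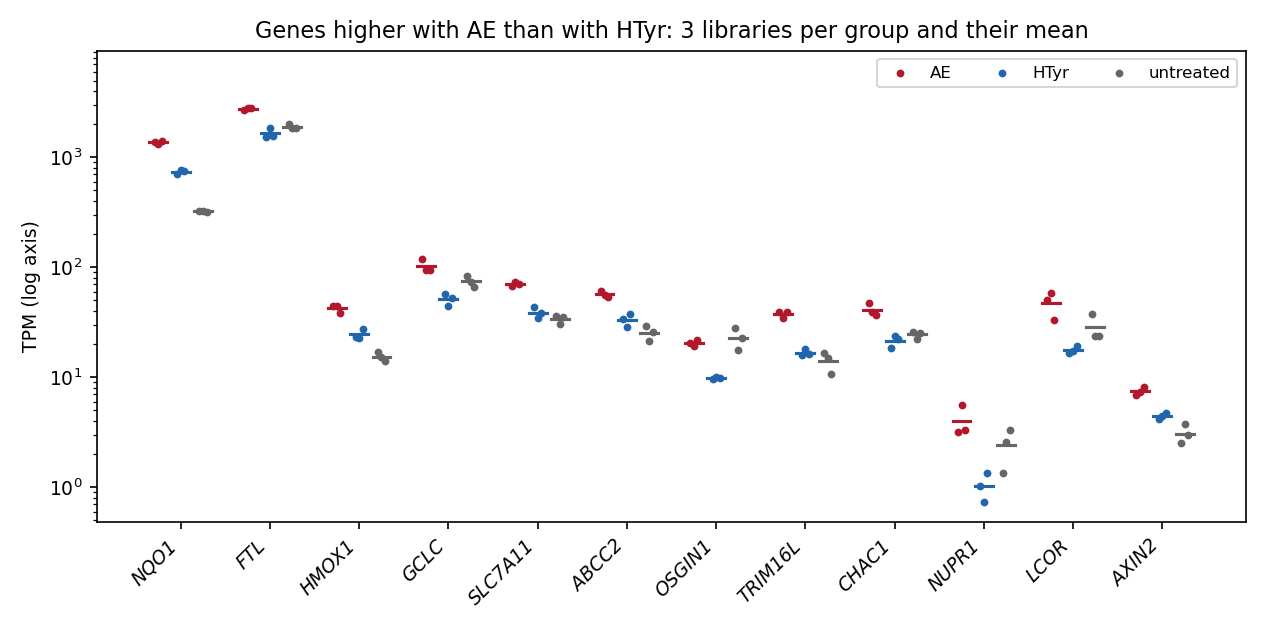
TPM on a log axis of 12 genes called higher with AE than with HTyr, with AE libraries in red, HTyr in blue and untreated in grey (3 points a group, bar at the mean). For NQO1 and HMOX1 the HTyr libraries lie between AE and untreated, for SLC7A11 and FTL they overlap untreated, and for OSGIN1 (9.54 to 10.0 TPM) they lie below it.

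The promoter sequences of these genes were searched in the RefSeq windows (GRCh38.p14, 250 bases before to 50 after a start) for TGACNNNGC, the core of the antioxidant response element bound by NFE2L2, on both strands. It was in 9 of 40 windows (22.5%) of the tested antioxidant genes and in 14.7% of the 15285 windows of all tested genes. It was in 11.3% of windows of genes higher with AE and 18.2% of those of lower genes. None of the 5 called antioxidant genes with a window held it there. These shares are descriptions, and no match concerns only this window. The sites below show where listed genes hold the core, with the core in capitals and the letters read 5′ to 3′ along the gene's strand. GCLM and TXNRD1 were not called between the treatments, ME1 missed the fold threshold, and CPA4, a gene lower with AE, is shown beside them because its match has the same letters as that of ME1.
GCLM, chr1:93909446-93909474, minus strand, core on the opposite strand: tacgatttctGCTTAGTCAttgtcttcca
TXNRD1, chr12:104215670-104215698, plus strand: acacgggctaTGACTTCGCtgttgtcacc
ME1, chr6:83431170-83431198, minus strand: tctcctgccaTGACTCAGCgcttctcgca
CPA4, chr7:130293136-130293164, plus strand: aaatacagctTGACTCAGCcactgtatga
The matches of ME1 and CPA4 also hold TGACTCA, the element of AP-1 factors.

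Of 35 tested ATF4 targets, genes of amino acid stress, 3 were called higher with AE and none lower, beside 0.899% and 0.443% of all tested genes, and 32 were not called. The median difference was 0.27 (0.15 under median-ratio scaling), with 32 members above 0. CHAC1, which breaks down glutathione, had 47.0, 39.4 and 36.4 TPM with AE, against 18.5, 23.9 and 22.1 TPM with HTyr and 25.8, 22.5 and 25.3 TPM in untreated cells (log2 difference 0.91, standard error 0.127, limma adjusted p = 0.00242). NUPR1, a small stress-induced chromatin protein, had 3.20, 5.60 and 3.28 TPM with AE, 1.02, 0.730 and 1.35 with HTyr and 1.35, 2.59 and 3.33 in untreated cells (1.54, limma adjusted p = 0.00613). SLC7A11 is the other member called. AE and HTyr libraries did not overlap in any of these, while for NUPR1 the untreated libraries reached both. Of 44 ER chaperone and unfolded protein response genes, 1 was called higher and none lower. It was SEL1L, a scaffold of ER-associated degradation, with 28.2, 27.2 and 30.1 TPM with AE, 20.7, 16.3 and 17.7 with HTyr and 45.2, 40.1 and 36.3 in untreated cells. Its difference of 0.64 was 0.56, short of the threshold, without HTyr replicate 2, and 0.41 with the GC and length trend removed.

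CYP1A1, a cytochrome P450 of aromatic compounds (ENSG00000140465, chromosome 15, 74719542 to 74725536), went the other way. It had 3.56, 3.67 and 4.11 TPM with AE, against 6.06, 7.18 and 8.20 TPM with HTyr and 0.39, 0.81 and 0.60 TPM in untreated cells. Both treatments were called above untreated cells (1.98 with AE and 2.81 with HTyr), and AE stood below HTyr by 0.83 (-0.83, standard error 0.169, limma adjusted p = 0.0134). The call was lost without AE replicate 1 (adjusted p = 0.0526) and without HTyr replicate 2 (adjusted p = 0.0513). Among 12 tested aryl hydrocarbon receptor targets CYP1A1 was the 1 called lower and NQO1, which is on both lists, the 1 called higher. Over all tested genes 0.443% were called lower and 0.899% higher. GCGTG, the core bound by the receptor, occurs in 48.9% of all windows. It is in capitals in these sites of the pair, which moved apart between the treatments.
CYP1A1, chr15:74725571-74725595, minus strand: agggaaggagGCGTGgccacacgta
NQO1, chr16:69726545-69726569, minus strand, core on the opposite strand: gtgcactacaCACGCgactcccaca

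DKK1, a secreted inhibitor of WNT signalling (ENSG00000107984, chromosome 10, 52314281 to 52318042), was the clearest gene lower with AE. It had 40.8, 28.5 and 29.7 TPM with AE, 99.4, 107 and 107 TPM with HTyr and 218, 220 and 202 TPM in untreated cells. The groups did not overlap. The log2 difference was -1.67 (standard error 0.107, limma adjusted p = 4.41e-06), and against untreated cells both treatments were lower, by 2.69 (-2.69) with AE and 1.03 (-1.03) with HTyr. AXIN2, an inhibitor inside the WNT pathway and one of its usual targets, had 6.89, 7.34 and 8.15 TPM with AE, 4.13, 4.44 and 4.73 with HTyr and 2.52, 3.72 and 2.95 in untreated cells, a difference of 0.69 (limma adjusted p = 0.00543) that was 0.57 and no longer called under median-ratio scaling. The other 15 of the 17 tested WNT targets and inhibitors were not called. Over all tested genes 0.899% were called higher and 0.443% lower.

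The carboxypeptidase gene CPA4 (ENSG00000128510, chromosome 7, 130293134 to 130324180) kept the order of DKK1, with 8.0, 5.85 and 7.53 TPM with AE, 26.1, 21 and 17.2 with HTyr and 39.1, 37.0 and 33.6 in untreated cells (-1.52, limma adjusted p = 0.000122). AKAP12, an anchor of protein kinase A, had 506, 458 and 485 TPM with AE, 823, 720 and 785 with HTyr and 1116, 1160 and 1046 in untreated cells (-0.68, limma adjusted p = 0.000122). CD68, a lysosomal membrane protein used as a macrophage marker, had 2.88, 1.58 and 2.74 TPM with AE, 6.82, 5.48 and 5.69 with HTyr and 16.4, 17.3 and 16.8 in untreated cells (-1.19, limma adjusted p = 0.00356). In all of these the untreated level was highest and the AE level lowest. CD68 was the 1 of 18 immune markers that reached the filter, and in each group 7 of the 18 were at 0 in all libraries. In bulk RNA, fewer cells with a transcript and less of it per cell cannot be told apart.

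Of 37 tested keratin and junction genes, 3 were called lower with AE and none higher, beside 0.443% and 0.899% of all tested genes. All 3 were keratins. The median difference of the list was 0.04, and -0.08 under median-ratio scaling. Of the 12 epithelial markers, KRT19 among them, 8 had a difference above 0 and the median was 0.11 (-0.01 under median-ratio scaling), although their summed level, to which abundant keratins contribute most, stood lowest with AE. EPCAM had 339, 325 and 317 TPM with AE, against 295, 270 and 304 TPM with HTyr. KRT7 had 42.6, 28.8 and 35.3 TPM with AE, 73.2, 68.8 and 69.6 with HTyr and 139, 156 and 139 in untreated cells (-1.0, limma adjusted p = 0.00096). KRT15 had 15.3, 9.86 and 12.8 TPM with AE, 22.5, 19.9 and 21.5 with HTyr and 61.7, 60.3 and 56.9 in untreated cells (-0.75, limma adjusted p = 0.00743), and fell short of the fold threshold without AE replicate 2 (-0.58). KRT19 had 509, 484 and 546 TPM with AE, 726, 840 and 746 with HTyr and 1083, 1052 and 1080 in untreated cells, the same order again. Its difference of -0.59 (limma adjusted p = 0.000321) sat at the threshold and missed it under quantile normalization and without AE replicate 1 (-0.58), AE replicate 2 (-0.54) or HTyr replicate 2 (-0.52). The list's lower calls numbered 1 to 3 when 1 AE or HTyr library was left out. FOSL1, an AP-1 subunit, had 69.3, 57.4 and 64.4 TPM with AE, 99.9, 106 and 91.4 with HTyr and 93.7, 110 and 106 in untreated cells (-0.63, limma adjusted p = 0.00755). The HTyr libraries overlapped the untreated ones, and without AE replicate 2 the difference was -0.56.

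Other genes were raised by HTyr and less, or not, by AE. ALDH1A3, an aldehyde dehydrogenase of retinoic acid synthesis (ENSG00000184254, chromosome 15, 100877714 to 100916626), had 189, 164 and 184 TPM with AE, 381, 387 and 422 with HTyr and 227, 273 and 234 in untreated cells. All AE libraries were below, and all HTyr libraries above, the untreated ones. The treatments differed by -1.15 (standard error 0.0840, limma adjusted p = 1.46e-05), while against untreated cells HTyr was called higher (0.70) and AE was not called (-0.45). HAS3, a hyaluronan synthase, had 27.5, 29.2 and 29.2 TPM with AE, 46.4, 49.6 and 51.8 with HTyr and 12.8, 13.4 and 15.2 in untreated cells (-0.77, limma adjusted p = 0.000321), so both treatments were higher than untreated and HTyr more so. S100A2, a calcium-binding protein of epithelia, had 8.14, 12.7 and 12.7 TPM with AE, 18.1, 18.5 and 24.7 with HTyr and 10.9, 11.4 and 10.2 in untreated cells (-0.86, limma adjusted p = 0.0193). MMP7, a matrix metalloproteinase at low level, had 0.480, 0.490 and 0.130 TPM with AE, 1.52, 1.18 and 1.43 with HTyr and 0.410, 0.610 and 0.460 in untreated cells (-1.14, limma adjusted p = 0.0186). The calls of the last 2 genes depended on single libraries. For S100A2 the adjusted p was 0.0764, 0.0529 and 0.0537 without AE replicate 1, HTyr replicate 2 or HTyr replicate 3, and for MMP7 it was 0.0576, 0.0504 and 0.0531 without AE replicate 3, HTyr replicate 1 or HTyr replicate 2.

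**Figure D4:**
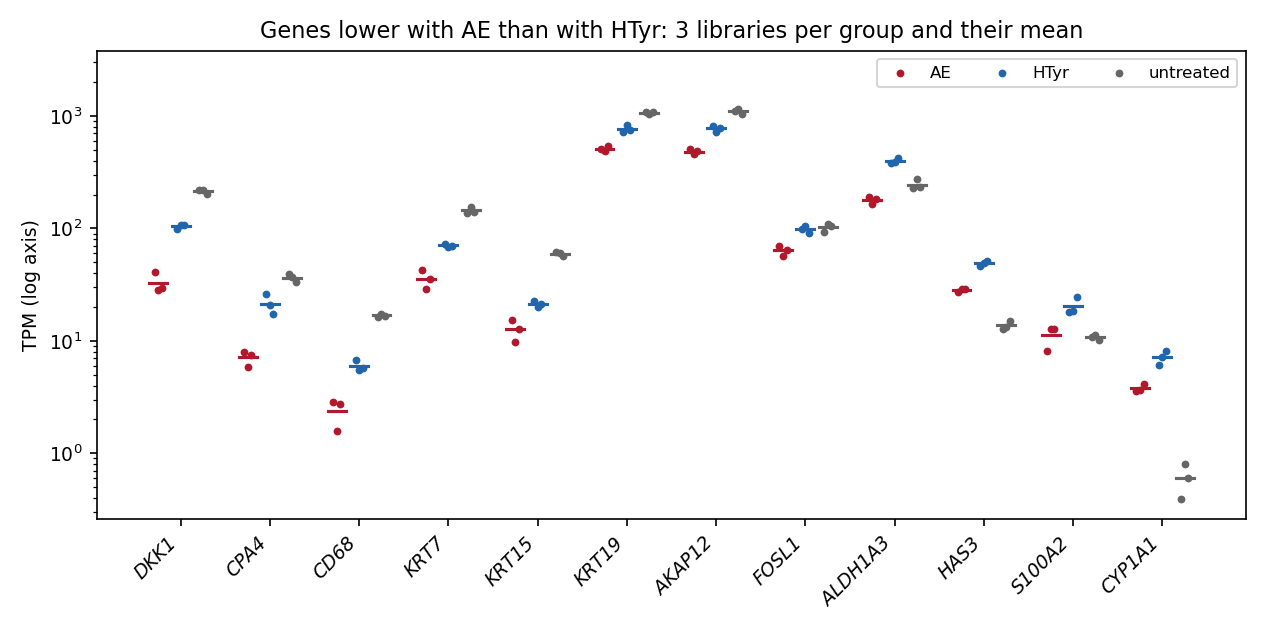
TPM on a log axis of 12 genes called lower with AE than with HTyr, with AE libraries in red, HTyr in blue and untreated in grey (3 points a group, bar at the mean). For DKK1, CPA4, CD68, KRT7, KRT15, KRT19 and AKAP12 the untreated libraries are highest, and for HAS3 and CYP1A1 they are lowest, with CYP1A1 at 0.39 to 0.81 TPM.

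Most cell cycle genes were called higher with both treatments against untreated cells, and few passed the fold threshold between AE and HTyr. Over all tested genes, 10.7% were called higher with AE and 7.80% with HTyr against untreated cells. Between the treatments 0.899% were called higher and 0.443% lower, and 3904 of the 14899 were at unadjusted p (limma) under 0.05 in either direction. Of 72 tested E2F targets and replication genes, 69 were called higher with AE and 54 with HTyr against untreated cells. Between the treatments 1 was called higher and none lower, and median-ratio scaling called 0 higher. The median difference was 0.19 (0.08 under median-ratio scaling). Between the treatments 60 of the 72 were above 0, 37 were higher and 0 lower at unadjusted p under 0.05, and 15 were higher and 0 lower at a limma adjusted p under 0.05 with no fold threshold. Of 77 G2/M and mitosis genes, 71 and 61 were called higher against untreated cells, and between the treatments 1 was, with a median of 0.05 (-0.07 under median-ratio scaling), 12 higher and 7 lower at unadjusted p under 0.05. This 1 was KIF15, a spindle kinesin, with 13.2, 12.4 and 12 TPM with AE, 8.23, 6.84 and 9.41 with HTyr and 6.54, 7.12 and 5.94 in untreated cells (0.60). Its adjusted p was 0.0714 without AE replicate 1 and 0.0846 without HTyr replicate 2, and under median-ratio scaling its difference was 0.48. MKI67, a proliferation marker, averaged 57.6 ± 4.03 TPM with AE and 53.2 ± 5.15 with HTyr, against 28.0 ± 6.62 in untreated cells (SD, n = 3 each), and its difference of 0.12 between treatments was within the spread (limma adjusted p = 0.601) and -0.01 under median-ratio scaling. MYC averaged 232 ± 13.9 TPM with AE, 216 ± 6.09 with HTyr and 364 ± 1.30 in untreated cells (0.10, limma adjusted p = 0.288, and -0.02 under median-ratio scaling). Of 14 replication-dependent histone genes 1 was called lower, H2BC5, with 6.47, 3.58 and 7.57 TPM with AE, 11.1, 9.66 and 12.2 with HTyr and 9.90, 10.7 and 11 in untreated cells. Its difference was -0.90 (limma adjusted p = 0.0201), with an adjusted p of 0.05 without HTyr replicate 2 and 0.0513 without HTyr replicate 3, neither under the threshold.

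CDKN1A, the p21 inhibitor of cyclin-dependent kinases, had 148, 149 and 157 TPM with AE, 220, 235 and 208 with HTyr and 262, 241 and 273 in untreated cells. The groups did not overlap, and the difference of -0.55 (standard error 0.0724, limma adjusted p = 0.00187) was just under the fold threshold. It passed it under median-ratio scaling (-0.67), quantile normalization (-0.59), removal of the GC and length trend (-0.59) and without HTyr replicate 3 (-0.59). No member of the 35 tested p53-induced genes was called by limma. At unadjusted p under 0.05, 2 were higher and 8 lower, beside 3904 of the 14899 tested genes in either direction. At a limma adjusted p under 0.05 with no fold threshold, 0 were higher and 5 lower. Median-ratio scaling called 2 lower. The list's median was -0.09 (-0.21 under median-ratio scaling), and 24 of the 35 were below 0, where 71.7% of all tested genes were above 0.

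Genes of mitochondria did not separate the treatments at these thresholds. Of all 14899 tested genes, 1.34% were called, and 3904 were at unadjusted p (limma) under 0.05 in either direction. None of the 79 nuclear OXPHOS subunits was called by limma, with 3 higher and 5 lower at unadjusted p under 0.05, a median of -0.03 and a range of -0.53 to 0.27. Of the 79, 49 were below 0, where 71.7% of all tested genes were above 0. With median-ratio scaling 1 was called lower and the list's median was -0.15, beside 0.00 over all tested genes. With the GC and length trend removed these medians were -0.13 and 0.01. None of 75 mitochondrial ribosome proteins (13 higher and 1 lower at unadjusted p under 0.05, median 0.06), of 15 mitochondrially encoded transcripts (2 and 1, median 0.02) and of 34 genes of mitochondrial biogenesis and dynamics (16 and 0, median 0.10) was called, and under median-ratio scaling these 3 medians were -0.07, -0.10 and -0.03. TFAM, which packages mitochondrial DNA, had 44, 40.2 and 41.6 TPM with AE, 30.4, 31.4 and 40.5 with HTyr and 27.0, 25.6 and 30.4 in untreated cells, a difference of 0.30 that did not pass (limma adjusted p = 0.0721). MFN1 (0.27), FOXJ3 (0.22) and MFF (0.20), genes of mitochondrial fusion, biogenesis and fission in turn, had limma adjusted p of 0.0318, 0.0342 and 0.0361 and missed the fold threshold. Their differences were 0.15, 0.10 and 0.08 under median-ratio scaling, and 0.08, 0.05 and 0.01 with the GC and length trend removed. MFN2 (0.12), TOMM20 (0.00) and PPARG (-0.14) had adjusted p of 0.31, 0.985 and 0.345. PPARG averaged 21.4 ± 2.54 TPM with AE and 23.7 ± 1.81 with HTyr, and 37.1 ± 2.60 in untreated cells (SD, n = 3 each). Of 79 cytosolic ribosomal protein genes none was called (6 higher and 2 lower at unadjusted p under 0.05, median 0.01, and -0.12 under median-ratio scaling). In all, 26 of the 46 lists had no called member.

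**Figure D5:**
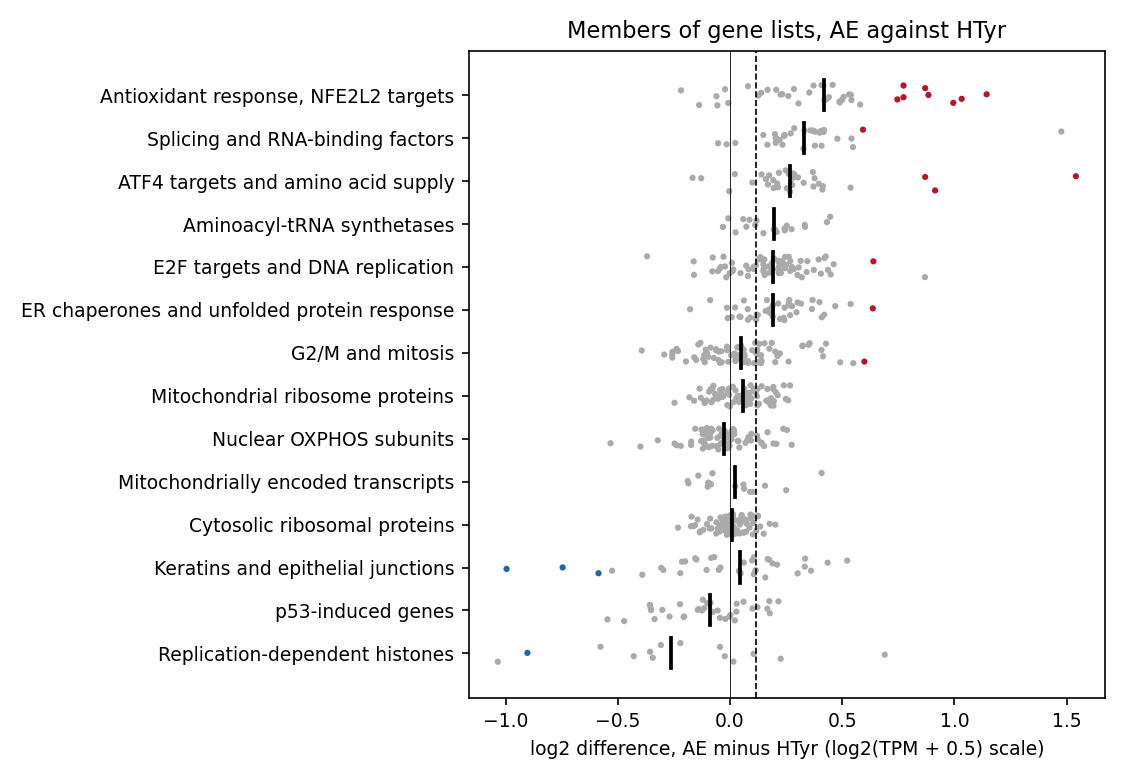
Log2 difference, AE minus HTyr, of the tested members of 14 gene lists, with genes called higher in red, genes called lower in blue, list medians as black bars and the median of all tested genes, 0.12, dashed. The antioxidant list has its median at 0.42 and 8 red points, nuclear OXPHOS subunits lie between -0.53 and 0.27 with none called, and the 3 blue keratins stand apart from their list.

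Splicing and RNA-binding factors had a median difference of 0.33 (0.20 under median-ratio scaling and 0.15 with the GC and length trend removed), with 32 of 34 above 0. Of these genes 1 was called higher and none lower, beside 0.899% and 0.443% of all tested genes. It was NKTR, a cyclophilin with an SR-like domain, with 33.8, 29.9 and 27.2 TPM with AE, 24.6, 15.7 and 20.2 with HTyr and 35.4, 33.3 and 31.1 in untreated cells. HNRNPDL, an RNA-binding protein, had 239, 225 and 212 TPM with AE, 159, 136 and 149 with HTyr and 173, 177 and 163 in untreated cells (0.60, limma adjusted p = 0.000859). BCLAF1 (0.59), SNHG32 (0.59), KLF11 (0.63), PLCB1 (0.78), KLF2 (0.72), ARRDC4 (0.76) and CASP6 (0.73) were also called higher. With HNRNPDL and NKTR, these 9 were each out of the call under median-ratio scaling, and NKTR, HNRNPDL, BCLAF1, KLF11, PLCB1, KLF2, ARRDC4 and CASP6 without HTyr replicate 2, whose values ran from 0.43 for NKTR to 0.82 for KLF2. Without AE replicate 1 these 8 were lost too, from 0.46 for KLF11 to 0.76 for PLCB1. SNHG32 was lost without AE replicate 2 (0.53) or HTyr replicate 3 (0.55). Leaving out AE replicate 2 also lost ARRDC4 (0.59) and PLCB1 (0.74), AE replicate 3 lost BCLAF1 (0.58), KLF2 (0.59) and CASP6 (0.76), HTyr replicate 1 lost KLF2 (0.74) and CASP6 (0.68), and HTyr replicate 3 lost KLF2 (0.60) and ARRDC4 (0.72).

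LCOR, a corepressor of nuclear receptors, had the largest positive difference among called coding genes at 5 TPM or more in the higher group. It had 50.4, 57.8 and 33.5 TPM with AE, 16.6, 17.4 and 19.3 with HTyr and 37.9, 23.8 and 23.8 in untreated cells (1.35, standard error 0.249, limma adjusted p = 0.00829). HOXA10-AS, an antisense transcript, had 16.5, 15.1 and 15.6 TPM with AE, 8.11, 8.62 and 7.85 with HTyr and 7.21, 9.49 and 7.92 in untreated cells (0.90, limma adjusted p = 0.00036). HOXA10 on the other strand had a difference of 0.23 and was not called. The kit keeps strand, and whether the counting used it is not stated. ZNF525, a zinc finger gene, had 7.47, 6.77 and 5.95 TPM with AE, 3.82, 3.37 and 2.68 with HTyr and 2.36, 2.94 and 1.84 in untreated cells (0.94, limma adjusted p = 0.0058). ANKRD12 (0.80) was called as well, but not without AE replicate 1 (adjusted p = 0.0617) or HTyr replicate 2 (adjusted p = 0.0633), and TSTD3 (1.19) lost its call without any of AE replicates 1, 2 and 3 or HTyr replicates 2 and 3 (adjusted p between 0.0634 and 0.112). KLRC4-KLRK1, a readthrough of receptor genes of natural killer cells, was higher by 1.22 (limma adjusted p = 0.00598), and KLRK1 (0.66) and KLRK1-AS1 (0.59), which overlap it on chromosome 12, were called too (though under none of the 3 other scalings), so that reads of the locus cannot be assigned to 1 of the 3 with certainty.

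Some of the largest differences belonged to short loci that poly(A) libraries sample poorly. MIR1307, a microRNA precursor inside ATP5MK on chromosome 10, had 9.06, 13.7 and 9.90 TPM with AE and was listed at 0 in all HTyr and untreated libraries (limma adjusted p = 0.0172). ATP5MK itself did not differ beyond the spread (-0.19, adjusted p = 0.406), the mature microRNA was not measured, and the call was lost without AE replicate 1 or HTyr replicate 2 (adjusted p = 0.0565 and 0.0621). RNVU1-28, a variant U1 small nuclear RNA, was listed at 0 with AE and had 181, 103 and 7.19 TPM with HTyr, with 9.14, 0 and 0 TPM in untreated cells. SNORD97, a small nucleolar RNA, was listed at 0 with AE and in untreated cells and had 52.5, 64.3 and 11.7 TPM with HTyr. Of the 66 genes lower with AE, 11 were U2-type small nuclear RNA genes, RNU2-1 among them, that hold the same value in every library, 0.310, 0.480 and 0.530 TPM with AE, 29.1, 19.1 and 1.84 with HTyr and 1.59, 0.290 and 3.35 in untreated cells. Counted once they leave 56 lower genes. In all of these the HTyr level was high in replicates 1 and 2 and low in replicate 3. RNVU1-28 lost its call without AE replicate 1 (adjusted p = 0.0579), HTyr replicate 1 (0.0512) or HTyr replicate 2 (0.0719), SNORD97 without any of the AE libraries or HTyr replicates 1 and 2 (0.0587 to 0.0951), and the U2 genes likewise (0.0668 to 0.119).

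Where the untreated level stood was counted for every called gene from group means of the log2 values. Libraries may still overlap, as the AE and untreated ones of OSGIN1 and PLCB1 did. Of the 134 genes higher with AE, it lay below both treatments in 33 (24.6%), between them in 78 (58.2%) and above both in 23 (17.2%). Of the 66 lower genes, it lay below both in 10 (15.2%), between in 33 (50%) and above both in 23 (34.8%). Over all tested genes the shares were 42.4%, 19.9% and 37.7%. A gene with a wide gap between AE and HTyr leaves more room for a level between them, so these shares are a description. NQO1, HMOX1, ABCC2, SLC7A11 and TRIM16L were among the genes higher with AE and lowest in untreated cells, GCLC, FTL, CHAC1 and LCOR among those with untreated cells between, and OSGIN1, SEL1L, SNHG32 and PLCB1 among those with untreated cells highest.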

How the data were processed

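The authors treated HCT116 cells, extracted total RNA, made stranded poly(A) libraries, trimmed the reads, aligned them with STAR (GRCh38) and used RSEM to quantify genes of the Ensembl annotation. For STAR and RSEM, versions were not given in the sources used here. What was deposited by the authors is TPM per library, to 2 decimals and unscaled across libraries. TPM keep no depth, so the depth of each library is unknown and no counting error is given. The authors' estimated counts were not used here.

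Libraries took their groups from the labels. Values were analysed as log2(TPM + 0.5) for the 14899 genes at 1 TPM or more in at least 3 of 15 libraries (45765 left out). One limma 3.58.1 fit (R 4.3.3) of 5 group means, with a mean-variance trend, had 10 residual and 3.42 prior degrees of freedom. Benjamini-Hochberg adjustment ran over all 14899 genes. The test was checked on simulated data with independent noise per gene. These had no scale, GC or length shift of whole libraries, so the check does not cover the choice of scaling. Symbols and coordinates are from GENCODE 44 (60463 of 60664 identifiers), transcript length and GC content from its transcripts (99.7% of tested genes), and promoter windows, for 10540 tested genes, from RefSeq. Python 3.11.15 (scipy 1.17.1, pandas 2.3.3, numpy 2.4.6) made the tables, and matplotlib 3.10.9 the figures.

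The 46 gene lists (1608 genes), the comparison and the thresholds were chosen with earlier results of these data known. Named genes were set by a rule: from 133 called genes whose AE and HTyr libraries did not overlap and whose higher group averaged 5 TPM or more, the 12 largest differences in each direction, the 8 most abundant and, for each position of the untreated level and direction, the 3 largest; up to 4 called members per list and 2 that went against it; and 16 fixed genes. Some genes the rule takes in are not reported here. GCLM, SQSTM1, ME1, NFE2L2, KEAP1, TXN, FTH1, TRIM16, FTLP3, HOXA10, KLRK1, KLRK1-AS1 and ATP5MK were named outside it, after their values were seen.

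Alternatives were pseudocounts of 0.1 and 1, no filter or a filter at a mean of 5 TPM, scaling by median ratios or by quantiles, correction for GC content and length, leaving out mitochondrially encoded and ribosomal protein genes, leaving out each library, fitting 6 or 9 libraries, a replicate block, array weights, no variance trend and other fold thresholds.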

Additional observations from a re-analysis of the deposited data

Results flagged for a closer look

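LINC02356, a long noncoding RNA on chromosome 12, was the 1 gene called against untreated cells in opposite directions by the treatments and also called between them. It had 1.95, 3.66 and 1.92 TPM with AE, against 6.76, 8.61 and 9.14 TPM with HTyr and 5.90, 3.16 and 6.41 TPM in untreated cells. AE lay below HTyr by 1.56 on the log2 scale (-1.56, limma adjusted p = 0.00408). Against untreated cells the differences were -0.90 with AE (adjusted p = 0.009) and 0.66 with HTyr (adjusted p = 0.0444), and the untreated libraries overlapped the AE ones.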

How the results depend on the processing

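The calls of 200 genes (134 higher, 66 lower with AE) came to 126 at a mean of at least 5 TPM (33 lower), with 42 lower when no filter was used. They came to 117 (34 higher) under median-ratio scaling, 106 (38 higher) under quantile normalization and 84 (29 higher) with the GC and length trend removed. Fitting the 6 AE and HTyr libraries alone gave 25 (14 and 11), and the 9 libraries with untreated cells 120 (83 and 37). No fold threshold gave 1359 (1201 and 158), an absolute log2 difference over 1 gave 51 (22 and 29), and limma's treat against 1.5-fold gave 4 (1 and 3): NQO1, DKK1, CPA4 and ALDH1A3. Leaving out 1 library gave 74 to 244 genes, 50 to 182 higher and 24 to 67 lower. The cause was tested in none of these, beyond fewer genes or samples entering. Antioxidant genes called higher, 8 as reported, numbered 8 to 10 with a library left out, 5 with 6 libraries, 25 with no fold threshold, 2 over a difference of 1 and 1 with treat. Keratin and junction genes called lower, 3 as reported, numbered 1 to 3 with a library left out, 6 with no fold threshold and 0 with 6 libraries, over a difference of 1 and with treat. AE and HTyr libraries share replicate numbers, but same-numbered deviations from the group means correlated at -0.19, 0.07 and -0.12. AE replicate 1 went best with HTyr replicate 3 (0.28). A pairing by number was thus not seen, though so few libraries cannot exclude one. With the replicate block 184 genes were called (124 higher, 60 lower), and with block and GC and length removal 76 (29 higher, 47 lower). Of 56 called genes the rule names, 39 lost the call with the 6 AE and HTyr libraries alone. Without at least 1 AE or HTyr library 34 lost it, as did 28 under at least 1 of the 3 other scalings. At the 1.5-fold threshold 4 lost it nowhere, though NQO1, 1 of them, does not reach a difference over 1. None changed direction under any alternative. Depth per library is unknown, and differences of genes near 1 TPM rest on few reads.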

Other observations

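Outside the lists, some surface, matrix and membrane genes were lower with AE, named here after their values were seen. EMP1, an epithelial membrane protein, had 42.9, 53.3 and 47.9 TPM with AE, 82.7, 70.2 and 69.0 with HTyr and 111, 94.9 and 109 in untreated cells (log2 difference -0.62, limma adjusted p = 0.0283). TGM2, a transglutaminase, had 4.46, 4.72 and 4.87 TPM with AE, 6.98, 7.59 and 7.41 with HTyr and 16.1, 14.8 and 15.5 in untreated cells (-0.59, limma adjusted p = 0.0188). SEMA7A, a membrane semaphorin, averaged 6.76 ± 1.28 TPM with AE, 10.4 ± 1.11 with HTyr and 26.6 ± 0.488 in untreated cells, and MGLL, which splits monoacylglycerols, 5.03 ± 0.282, 8.46 ± 0.589 and 17.1 ± 1.70 TPM (SD, n = 3 each). For all 4 the untreated libraries were highest and the AE libraries lowest.

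HYAL1, a hyaluronidase, averaged 2.45 ± 0.0929 TPM with AE, 4.38 ± 0.440 with HTyr and 4.33 ± 1.19 in untreated cells (SD, n = 3 each, -0.72, limma adjusted p = 0.021), and CDA, cytidine deaminase, 11.7 ± 0.784, 19.5 ± 0.896 and 20.2 ± 1.42 TPM (-0.72, limma adjusted p = 0.00228). In both, HTyr overlapped untreated cells and AE lay below. CKMT1A (-0.68) and CKMT1B (-0.59), near-identical copies of mitochondrial creatine kinase whose reads can be split between them, were both called lower. INHBE, an activin subunit, had 2.18, 2.21 and 1.71 TPM with AE, 0.560, 0.570 and 0.640 with HTyr and 0.370, 0.320 and 0.430 in untreated cells (1.21, limma adjusted p = 0.0161).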
